A study of Arabidopsis thaliana with 14 samples.

Results

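UDP-glycosyltransferases are the enzymes that attach a sugar from a nucleotide sugar to small molecules such as flavonoids, hydroxycinnamic acids, hormones and defence compounds. They were read here as all genes whose description in the expression table contains the words UDP-glucosyl transferase, UDP-glucosyltransferase or UDP-glycosyltransferase. This rule found 125 members among 27861 genes. The rule used names alone and no measured value.

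The libraries came from whole rosettes of Arabidopsis thaliana accession Col-0, a laboratory wild type, grown at 20 °C and 100 to 110 µmol photons m-2 s-1 in days of 10 h light and 14 h dark. Primed plants (P) had spent 24 h at 4 °C at an age of 28 d and then 5 d at 20 °C, whereas control plants (C) had stayed at 20 °C throughout. C0 and P0 were taken before triggering, and the other 12 libraries after 30, 60 or 120 min of cold at 4 °C (suffix C) or of heat-filtered high light at 800 µmol photons m-2 s-1 (suffix L). No untriggered library was taken at these later times. In ratios to C0 or P0 the trigger and the time of day therefore cannot be told apart. All plants were wild type, each of the 14 conditions is 1 library from a pool of at least 5 rosettes, and no difference below has a replicate check, an error or a p-value.

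Glycosylation makes small molecules more soluble, less reactive and ready for storage in the vacuole, and it can switch a hormone off. In leaves the family is best known for anthocyanins and flavonols, which need glycosylation to accumulate, and for sinapate esters, which screen UV radiation in the epidermis. Many members lie in tandem arrays of related genes and carry a signature near the end of the protein, the box that holds the sugar donor.

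The table's description was wider than the plant enzyme family itself. Of the 125 members, 108 carry the InterPro annotation of the UDP-glycosyltransferase domain in RefSeq, and 17 do not. Among the 17 are GBSS1, the granule-bound starch synthase that makes amylose, DGD1, which makes the chloroplast lipid digalactosyldiacylglycerol, LEW3, SETH2 and ATTPS6. Of the 108, 76 hold the exact core of 6 residues that marks the signature box in the translated RefSeq coding sequence, and 0 of the 17 do. The 108 encode 287 to 637 residues, with a median of 467. The 17 are kept in all counts below because the rule names them, and the counts over the members with the domain are given in the closing section.

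The signature box is shown for a group of related members that had the steepest rise in high light, UGT76E12, AT3G46700 and UGT76E1, and for UGT76E11, a close neighbour that did not share it. The box covers 44 codons, and its core of 6 codons is in capitals. The sequences are from RefSeq on TAIR10.1, with UGT76E12 at chr3:17189640-17189771, minus strand, UGT76E11 at chr3:17193029-17193160, minus strand, AT3G46700 at chr3:17200664-17200795, minus strand, and UGT76E1 at chr5:24006482-24006613, minus strand.
UGT76E12: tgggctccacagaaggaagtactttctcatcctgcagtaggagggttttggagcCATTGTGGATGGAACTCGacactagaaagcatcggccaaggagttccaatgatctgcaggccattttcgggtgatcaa
UGT76E11: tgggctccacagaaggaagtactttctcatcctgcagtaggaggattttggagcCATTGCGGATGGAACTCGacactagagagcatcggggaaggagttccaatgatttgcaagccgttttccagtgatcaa
AT3G46700: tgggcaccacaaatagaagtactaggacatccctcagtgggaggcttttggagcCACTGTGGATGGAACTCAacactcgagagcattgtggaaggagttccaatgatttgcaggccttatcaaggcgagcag
UGT76E1: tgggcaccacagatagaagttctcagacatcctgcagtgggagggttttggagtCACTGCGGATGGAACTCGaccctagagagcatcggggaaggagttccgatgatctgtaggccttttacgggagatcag
Of the 132 bases, UGT76E12 and UGT76E11 differ at 10, UGT76E12 and UGT76E1 at 22, and UGT76E12 and AT3G46700 at 29. Of these 3 pairs the box was most alike in UGT76E12 and UGT76E11, whose transcripts behaved differently, as the values below show.

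The 300 bases before the annotated start are shown for 5 members on which the results turn, written from 5′ to 3′ on the strand of the gene. Capitals mark the motifs ACCGAC and GCCGAC (the C-repeat core bound by CBF factors of the cold response), CACGTG (the G-box) and TGACG (the core bound by TGA factors), each searched on both strands. None of these 4 motifs contains another. The positions on TAIR10.1 are chr3:17191168-17191467, minus strand for UGT76E12, chr3:17202075-17202374, minus strand for AT3G46700, chr5:24007908-24008207, minus strand for UGT76E1, chr4:13761604-13761903, minus strand for AT4G27560, and chr4:8123836-8124135, minus strand for AT4G14090.
UGT76E12: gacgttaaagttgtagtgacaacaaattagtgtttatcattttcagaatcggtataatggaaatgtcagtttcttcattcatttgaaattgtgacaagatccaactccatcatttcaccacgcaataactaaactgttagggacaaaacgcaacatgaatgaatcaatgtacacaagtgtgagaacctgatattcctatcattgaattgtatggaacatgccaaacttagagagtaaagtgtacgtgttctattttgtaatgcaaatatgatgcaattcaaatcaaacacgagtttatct
AT3G46700: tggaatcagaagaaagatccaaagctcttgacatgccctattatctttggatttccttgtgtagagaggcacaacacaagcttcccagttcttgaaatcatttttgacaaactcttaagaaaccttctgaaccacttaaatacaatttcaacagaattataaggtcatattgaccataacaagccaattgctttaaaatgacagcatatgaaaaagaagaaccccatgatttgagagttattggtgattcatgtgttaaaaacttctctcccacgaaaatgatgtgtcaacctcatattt
UGT76E1: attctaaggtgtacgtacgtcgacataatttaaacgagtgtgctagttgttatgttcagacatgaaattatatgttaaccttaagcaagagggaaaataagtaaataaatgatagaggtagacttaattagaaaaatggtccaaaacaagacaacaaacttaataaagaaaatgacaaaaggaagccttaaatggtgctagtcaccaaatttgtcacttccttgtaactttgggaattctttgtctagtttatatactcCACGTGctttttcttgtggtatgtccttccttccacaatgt
AT4G27560: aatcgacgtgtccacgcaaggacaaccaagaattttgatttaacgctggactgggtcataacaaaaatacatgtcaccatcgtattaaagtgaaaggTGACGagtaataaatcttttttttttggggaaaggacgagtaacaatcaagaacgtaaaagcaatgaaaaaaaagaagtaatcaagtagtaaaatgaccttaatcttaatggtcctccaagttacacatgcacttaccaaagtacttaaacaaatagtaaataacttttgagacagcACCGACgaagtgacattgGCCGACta
AT4G14090: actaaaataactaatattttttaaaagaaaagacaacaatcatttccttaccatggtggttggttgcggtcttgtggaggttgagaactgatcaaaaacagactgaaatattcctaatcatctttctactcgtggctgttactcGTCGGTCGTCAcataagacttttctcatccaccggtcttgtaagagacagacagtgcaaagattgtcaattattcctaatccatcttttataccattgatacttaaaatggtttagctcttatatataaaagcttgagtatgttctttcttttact
AT4G27560 holds ACCGAC near GCCGAC, with TGACG further upstream, AT4G14090 holds ACCGAC and TGACG side by side on the opposite strand, and UGT76E1 holds CACGTG. No match was found in the windows of UGT76E12 and AT3G46700, which says only that these letters are not in them. Part of the window of UGT76E12 is exon of AT3G46658, and part of that of AT4G14090 is exon of AT4G14096. Among the 74 members with a mean of at least 1 FPKM, ACCGAC was in 5 (6.76%). The share was 6.36% in 16308 windows of protein-coding genes with that mean, and 5.74% in all 23761 windows of protein-coding genes. In the same order of backgrounds, GCCGAC was in 6 (8.11%, against 3.52% and 3.13%), CACGTG in 5 (6.76%, against 8.25% and 7.73%) and TGACG in 19 (25.7%, against 22.0% and 21.7%). A match is a description of the letters and not a site.

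The unit is FPKM, a count of sequenced fragments scaled by the length of the transcript and the size of the library, so that levels can be set side by side between genes. A mean level of 1 FPKM or more was found for 74 members (59.2%), against 60.8% of all genes. Ratios were taken for these 74 alone, as deposited and without a pseudocount. Just inside the limit were UGT84A1 (1.38), UGT76E1 (1.2) and UGT73B3 (1.13), and just outside UGT76B1 (0.981), UGT73B5 (0.944) and AT5G37950 (0.813). Of the other 51 members, 38 stayed below 1 FPKM in each library and 13 reached it in at least 1.

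A few members held most of the family's transcripts. The 5 most abundant took 41.7% and the first 10 took 62.2% of the summed mean FPKM, 29 members had a mean of at least 10, and 2 of at least 100. These 2 were GBSS1 (240.0) and AT1G06000 (162). UGT88A1 had a mean of 98.7, GT72B1, an enzyme of xenobiotic detoxification, 96.8, AT4G27560 96.5, and UGT78D1, which adds rhamnose to flavonols, 94.0. The members together made up 0.189% (P120C) to 0.331% (C120L) of the summed FPKM of a library. The members' sum was lower in the primed library in 7 of 7 pairs of primed and control libraries of the same treatment, also when only the members with the domain were summed, for example 1554 against 1723 FPKM in P0 and C0 and 2005 against 2409 in P120L and C120L. This sum is weighted to the abundant members. The median log2 ratio of the measured members was above 0 for P30C/C30C (0.042), P60C/C60C (0.056) and P120L/C120L (0.059). It was below 0 for P0/C0 (-0.096), P120C/C120C (-0.124), P30L/C30L (-0.073) and P60L/C60L (-0.169).

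Depth was compared between libraries, and the tissue was checked by marker genes. The relative depth, read from the smallest steps of 605 weak genes, was 0.821 (P120C) to 1.26 (P30L), and 87.1% of the values used lay within 0.1 of a whole step. The leaf markers RBCS1A and LHCB1.3 were at 19214 to 25777 and at 16787 to 21500 FPKM. Of the root and flower markers, COBL9, EXPA7, AP3, PI and SEP3 stayed at or below 0.2 FPKM, PYK10 was at 11.3 to 27.4 and AG at 0.85 to 2.66, and SAG12 of senescing leaves was at 0 to 1.52. In rosettes a change in the share of a cell type and a change in the RNA per cell cannot be told apart.

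In control plants a larger share of the UDP-glycosyltransferases than of all genes differed from C0 under both triggers, in counts that have no test. With the study's filter this held for 10 of the 12 shares, without a filter for 9 and under the other settings for 11. A member was counted when its ratio to C0 was at least 1.5-fold in either direction. At the 3 times of cold, 30, 60 and 120 min, 5, 15 and 18 of 74 members were higher than in C0, which is 6.76%, 20.3% and 24.3%, against 4.73%, 7.42% and 8.87% of all genes with a mean of at least 1 FPKM. In the same libraries 7, 6 and 14 members were lower (9.46%, 8.11% and 18.9%, against 7.87%, 5.62% and 10.3%). The excess over all genes was largest for the members that were higher at 60 and 120 min. Both counts include UGT76E12, AT3G46700 and UGT76E1, which stayed at or below 0.82 FPKM in cold. These members reached a mean of 1 FPKM only through the light libraries C60L and C120L. With a pseudocount of 1 FPKM the counts at 60 and 120 min were 11 and 14 (14.9% and 18.9%, against 5.7% and 7.34% of all genes). With the libraries rescaled to 8 reference genes or by median ratios, the split of 5 higher and 7 lower at 30 min became 8 and 7, and that of 15 and 6 at 60 min became 17 and 3.

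In high light members differed from C0 in both directions. After 30, 60 and 120 min, 6, 15 and 18 members were higher than in C0 (8.11%, 20.3% and 24.3%, against 4.91%, 11.0% and 14.1%). Lower were 11, 17 and 19 members (14.9%, 23.0% and 25.7%, against 8.21%, 11.7% and 17.9%). The members' log2 ratios scattered more widely than those of all genes, with an SD over members of 1.42 at 120 min of light against 0.90, while their medians were close to each other at -0.14 and -0.08. The higher counts at 60 and 120 min and this SD include UGT76E12, AT3G46700 and UGT76E1, which reached the limit only through C60L and C120L. Their log2 ratios at 120 min were 4.56, 5.98 and 4.44, so the wider scatter rests in part on members that had to be high there. All ratios to C0 share that library, and no untriggered library was taken at 30, 60 or 120 min.

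The difference between primed and control plants reached fewer members. Before triggering 0 of 74 were higher (0.858% of all genes) and 5 were lower in P0 than in C0 (6.76%, against 3.74%), namely AT4G14090, AT4G15260, AT1G05675, UGT76E12 and UGT76E1. With a pseudocount of 1 FPKM only AT4G14090 stayed past the threshold (log2 -1.09), and the other 4 were at -0.56, -0.47, -0.16 and -0.27 in this order. In cold 7, 1 and 2 members were higher in primed plants at 30, 60 and 120 min (9.46%, 1.35% and 2.74%, against 5.06%, 3.47% and 1.77%) and 4, 2 and 5 were lower (5.41%, 2.7% and 6.85%, against 1.47%, 3.16% and 2.01%). The 7 include UGT76E12, AT3G46700 and UGT76E1, which were at 0.49, 0.48 and 0.18 FPKM in P30C. In high light 5, 0 and 4 were higher (6.76%, 0% and 5.48%, against 3.68%, 2.65% and 3.39%) and 5, 12 and 8 were lower (6.76%, 16.2% and 11.0%, against 1.68%, 5.62% and 4.92%). In light at 60 and 120 min more members were lower than higher in primed plants, and at 60 min 9 of the 12 had means below 3 FPKM. At both times the lower ones include UGT76E12, AT3G46700 and UGT76E1, which reached the limit only through the control libraries C60L and C120L. Taken relative to P0 and C0, with (P/P0)/(C/C0) in place of P/C, these counts became 11, 3 and 4 higher in cold (14.9%, 4.05% and 5.48%, against 9.99%, 7.43% and 5.46% of all genes) and 2, 1 and 1 lower (2.7%, 1.35% and 1.37%, against 1.3%, 2.35% and 1.87%). In light they became 6, 2 and 6 higher (8.11%, 2.7% and 8.22%, against 8.22%, 5.69% and 6.99%) and 2, 5 and 4 lower (2.7%, 6.76% and 5.48%, against 1.99%, 5.09% and 3.48%). Rescaled to the 8 reference genes, the split of 1 higher and 2 lower at 60 min of cold became 0 and 5, and under both rescalings that of 4 and 8 at 120 min of light became 3 and 10.

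**Figure D1:**
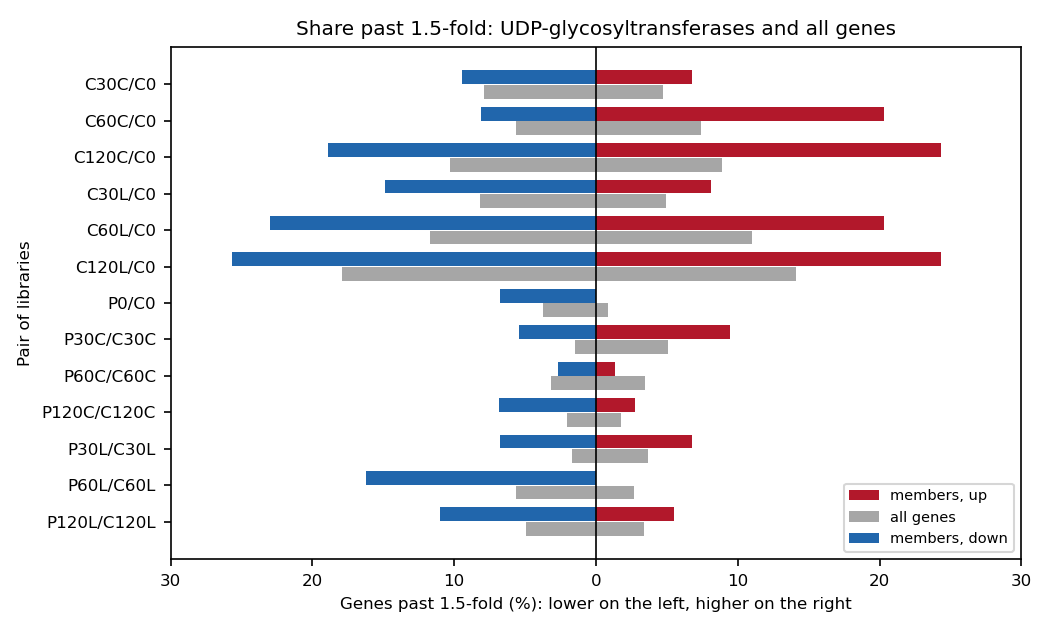
Share of genes past 1.5-fold for each pair of libraries, in percent, with lower genes to the left of 0 and higher genes to the right. Coloured bars are the members with a mean of at least 1 FPKM (74, or 73 where a library is at 0) and grey bars all genes with that mean. At 120 min of cold 24.3% of members were higher than in C0, against 8.87% of all genes. The 24.3% include UGT76E12, AT3G46700 and UGT76E1, which reached that mean only through C60L and C120L.

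Over the 13 pairs, 21 of the 74 members (28.4%) stayed inside 1.5-fold in each pair, against 49.1% of all genes. Members with and without the domain differed here, since 12 of the 15 measured members without the domain (80.0%), among them LEW3, SETH2 and ATTPS6, but 9 of the 59 with it (15.3%) stayed inside. These 9 were UGT71C4, UGT71B1, UGT71C5, UGT71D1, UGT89B1, HYR1, AT2G31790, AT3G21790 and the sterol glucosyltransferase SGT. Measured members with and without the domain also differed in level. The lowest mean was 3.63 FPKM (LEW3) without the domain and 1.13 (UGT73B3) with it, and weak members pass 1.5-fold more easily. The part of level in this difference was not tested. Counted over the 3 times together, 20 members (27.0%, against 11.9% of all genes) were higher and 17 (23.0%, against 16.3%) lower than C0 at some time of cold, and 23 higher (31.1%, against 18.7%) and 23 lower (31.1%, against 23.3%) at some time of light. Between primed and control plants, 8 were higher (10.8%, against 8.37%) and 9 lower (12.2%, against 4.85%) at some time of cold, and 9 higher (12.2%, against 8.34%) and 15 lower (20.3%, against 9.77%) at some time of light. The cold and the light counts include UGT76E12, AT3G46700 and UGT76E1, which reached the limit only through C60L and C120L.

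**Figure D2:**
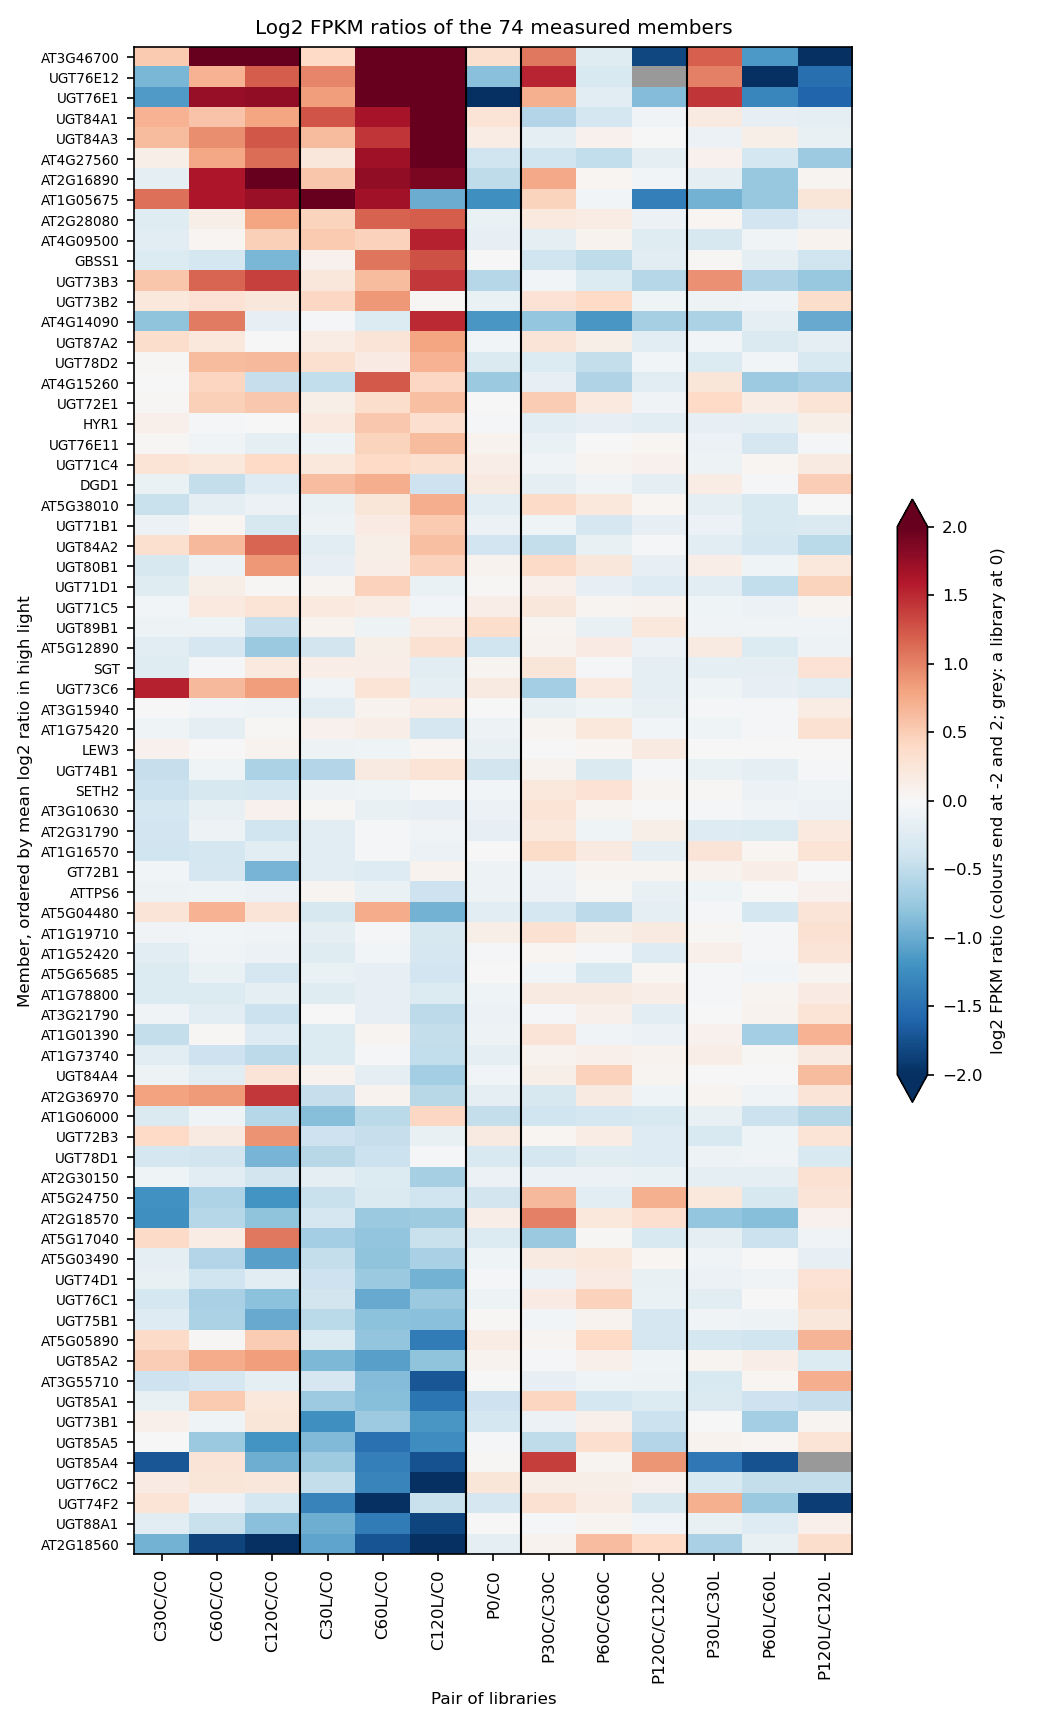
Log2 FPKM ratios of the 74 members with a mean of at least 1 FPKM (rows, ordered by the mean ratio in high light) for the 13 pairs of libraries (columns); the colour scale ends at -2 and 2, and grey marks a library at 0. AT3G46700, UGT76E12 and UGT76E1 head the map in high light and are lower in primed plants at 60 and 120 min of light, while UGT74F2, UGT88A1 and AT2G18560 are at its foot.

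Among flavonoid and anthocyanin members, AT4G14090 was lower in primed plants in each pair and AT4G27560 had the highest ratio to C0 in light. Of the 8 members of this list, 6 were measured at 1 FPKM or more. In control plants 1, 4 and 3 of the 6 were higher than C0 at the 3 times of cold (4.73%, 7.42% and 8.87% of all genes) and 1, 0 and 1 lower (7.87%, 5.62% and 10.3%). In light 0, 1 and 3 were higher (4.91%, 11.0% and 14.1%) and 1, 0 and 0 lower (8.21%, 11.7% and 17.9%). In primed against control plants 1 was lower before triggering (3.74%), 2, 1 and 1 in cold (1.47%, 3.16% and 2.01%) and 1, 0 and 2 in light (1.68%, 5.62% and 4.92%), with 0 higher in any pair. The list places AT1G06000 and AT4G27560 there although the table and RefSeq give them only the superfamily name. AT4G14090 is annotated as anthocyanin 5-O-glucosyltransferase, UGT78D2 adds glucose to flavonols and anthocyanidins, UGT78D1 adds rhamnose to flavonols, and UGT73C6 adds glucose to flavonol rhamnosides.

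AT4G14090 was at 23.4 FPKM in C0, at 13.4, 47.8 and 20.9 in the cold libraries of 30, 60 and 120 min, and at 23.1, 19.3 and 65.5 in those of high light. Primed plants had AT4G14090 at 10.5 FPKM in P0, at 7.87, 21.2 and 13.1 in cold, and at 14.8, 16.9 and 32.5 in high light. The control libraries of 60 min cold and 120 min light stood above the other 12 libraries, and every primed library was below the control library of its time and trigger. The ratio P/C was 0.448 before triggering, 0.588, 0.445 and 0.629 in cold, and 0.643, 0.874 and 0.496 in light. AT4G14090 lies at chr4:8122188-8123835, and 230 of its exon bases overlap those of AT4G14100, which was at 20.5 to 28.0 FPKM.

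Ratios of AT4G14090 to each group's own start were alike or higher in primed plants. P60C/P0 was 2.03 against 2.04 for C60C/C0, P120L/P0 3.1 against 2.8 for C120L/C0, and P60L/P0 1.61 against 0.825 for C60L/C0. Counted from the own start as (P/P0)/(C/C0), the log2 value turned from -0.77 to 0.39 at 30 min of cold, from -0.67 to 0.49 at 120 min of cold, from -0.64 to 0.52 at 30 min of light, from -0.19 to 0.96 at 60 min of light and from -1.01 to 0.15 at 120 min of light, and at 60 min of cold it went from -1.17 to -0.01. The lower level of AT4G14090 in triggered primed plants was thus already there in P0.

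Genes of the same route outside the family were read beside it. Of 12 such genes, 11 had a mean of at least 1 FPKM, and 7 of the 11 were lower in P0 than in C0 by at least 1.5-fold (3.74% of all genes), with a median log2 ratio of -0.89 against -0.05 for all genes. DFR, the reductase at the entry to anthocyanins, had 34.79 FPKM in C0 and 12.04 in P0, and LDOX, the next enzyme, 35.24 and 13.57. After 60 min of cold 7 of the 11 were higher than in C0 in control plants (7.42% of all genes) and 7 were lower in primed than in control plants (3.16%), and after 120 min of light the counts were 7 (14.1%), with 1 lower, and 6 (4.92%). These counts compare levels, and 7 of the 11 were already lower in P0. Ratios to each group's own start were not counted for these genes. For DFR the log2 P/C was -1.531 before triggering, -1.749 after 60 min of cold and -1.265 after 120 min of light. TT4, TT5 and F3H, enzymes shared with flavonol synthesis, and FLS1 stayed inside 1.5-fold in each primed to control pair. TT7, which also acts in flavonol synthesis, did not. Its log2 ratio was -0.89 for P0/C0, -1.54 for P60C/C60C and -1.08 for P120L/C120L, but -0.27 for P120C/C120C and -0.13 for P60L/C60L. At 60 min of light, where AT4G14090 had a ratio of 0.874, 0 of the 11 reached 1.5-fold between both groups.

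**Figure D3:**
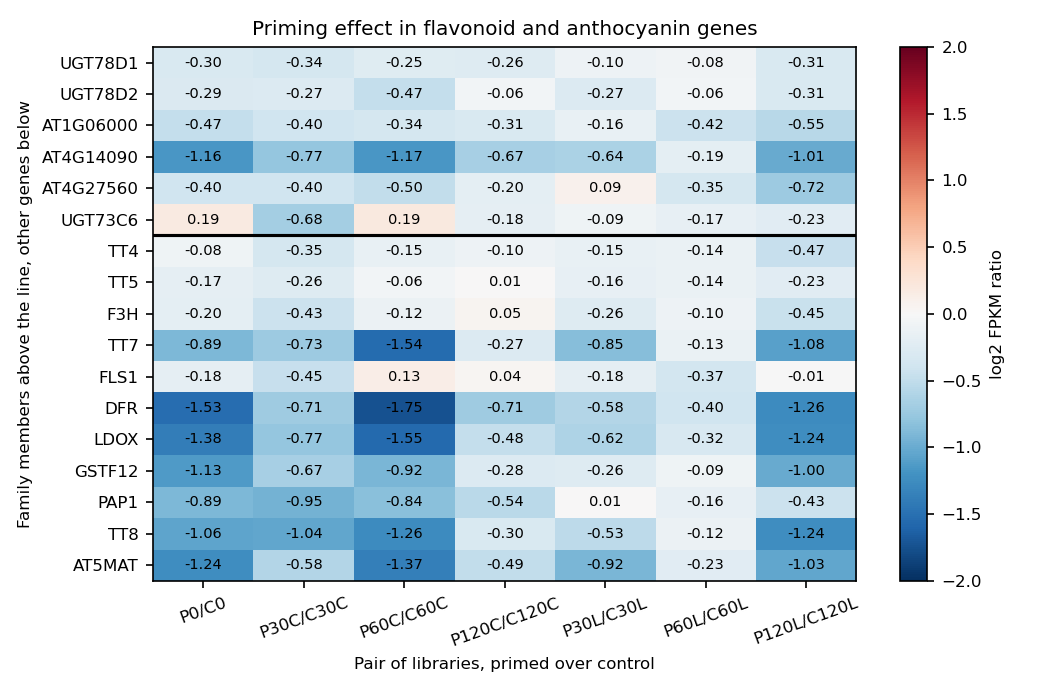
Log2 FPKM ratio of primed over control plants (numbers and colours) in 7 pairs of libraries (columns) for the 6 measured flavonoid and anthocyanin members above the line and 11 other genes of the route below it. AT4G14090 at -1.16 in P0/C0 and -1.17 at 60 min of cold is near AT5MAT (-1.24 and -1.37), while UGT78D1 stays between -0.34 and -0.08.

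UGT78D1 and UGT78D2 moved less than AT4G14090 in primed against control plants. UGT78D1 was at 130.1 FPKM in C0, at 102, 101 and 68.0 in the cold libraries of 30, 60 and 120 min, and at 88.9, 96.7 and 126 in those of high light. Primed plants had UGT78D1 at 106 FPKM in P0, at 80.3, 85.0 and 56.8 in cold, and at 82.8, 91.6 and 102 in high light. UGT78D1 was lowest after 120 min of cold in both groups, with C120C/C0 at 0.523. UGT78D2 was at 44.4 FPKM in C0, at 45.1, 69.1 and 70.0 in the cold libraries of 30, 60 and 120 min, and at 55.2, 49.8 and 72.3 in those of high light. Primed plants had UGT78D2 at 36.3 FPKM in P0, at 37.4, 49.9 and 67.1 in cold, and at 45.9, 48.0 and 58.5 in high light. In control plants UGT78D2 was past 1.5-fold after 60 and 120 min of cold (1.56 and 1.58) and after 120 min of light (1.63). No ratio of UGT78D1 or UGT78D2 between primed and control plants passed 1.5-fold.

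AT1G06000 was at 215 FPKM in C0, at 176, 202 and 145 in the cold libraries of 30, 60 and 120 min, and at 119, 148 and 286 in those of high light. Primed plants had AT1G06000 at 156 FPKM in P0, at 133, 159 and 117 in cold, and at 107, 111 and 196 in high light. AT1G06000 was below C0 after 30 min of light, at 0.552 of it, and was the highest in C120L. Each primed library was below its control library, with ratios of 0.685 to 0.898 that do not reach the threshold. UGT73C6 was at 1.88 FPKM in C0, at 5.48, 2.94 and 3.34 in the cold libraries of 30, 60 and 120 min, and at 1.79, 2.28 and 1.66 in those of high light. Its maximum of 5.48 FPKM in C30C was 2.91 times C0, and with 3.41 FPKM in P30C the ratio of primed to control plants was 0.622.

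AT4G27560, at a mean of 96.5 FPKM, rose with time under both triggers, and RefSeq notes a response to salt stress for it. AT4G27560 was at 47.9 FPKM in C0, at 51.9, 81.7 and 104 in the cold libraries of 30, 60 and 120 min, and at 55.9, 155 and 279.6 in those of high light. Primed plants had AT4G27560 at 36.4 FPKM in P0, at 39.2, 57.8 and 90.6 in cold, and at 59.5, 122 and 169 in high light. The levels were higher at each later time in both groups, and higher in high light than in cold. C120L/C0 was 5.84 and C120C/C0 2.17, against 4.66 and 2.49 for P120L/P0 and P120C/P0. Of the P/C ratios only that of 120 min light, at 0.606, passed the threshold. Its tandem neighbour AT4G27570, which is 95.4% identical over the coding sequence, stayed at a mean of 0.336 FPKM. They are the most alike of the 84 pairs of neighbours compared, so that reads shared between them could be assigned to either, and how the counting split them was not tested.

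The sinapate group, the glucosyltransferases that make glucose esters of sinapate and other hydroxycinnamates, was higher mainly at 120 min. Of its 4 members, 2 were at least 1.5-fold higher than C0 at 30 and at 60 min of either trigger. The shares of all genes at these times were 4.73% and 7.42% in cold and 4.91% and 11.0% in light. After 120 min 3 were higher in cold (8.87% of all genes) and 3 in light (14.1%), where UGT84A4 was lower. The median log2 ratios at 120 min were 0.98 and 1.4, against -0.09 and -0.08 for all genes. UGT84A3 was at 16.4 FPKM in C0, at 25.3, 31.3 and 38.8 in the cold libraries of 30, 60 and 120 min, and at 25.4, 44.0 and 95.1 in those of high light. Primed plants had UGT84A3 at 18.1 FPKM in P0, at 22.4, 33.4 and 38.7 in cold, and at 23.4, 47.8 and 85.4 in high light. UGT84A3, annotated as sinapate 1-glucosyltransferase, was higher at each later time under both triggers and reached 5.81 times C0 in C120L. Its primed libraries were within 0.886 to 1.11 times the control libraries, P0 included.

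UGT84A2 was at 60.4 FPKM in C0, at 75.7, 94.6 and 135 in the cold libraries of 30, 60 and 120 min, and at 52.1, 65.8 and 91.4 in those of high light. Primed plants had UGT84A2 at 46.4 FPKM in P0, at 54.3, 85.8 and 133 in cold, and at 44.9, 51.5 and 63.0 in high light. UGT84A2 had its highest levels after 120 min of cold in both groups, which lay close together there. In light it was below C0 at 30 min and past 1.5-fold only at 120 min, a log2 ratio of 0.60 that became 0.48 under scaling by reference genes. Its P/C ratio was below 1 in all 7 pairs, and none passed 1.5-fold. UGT84A1 was at 0.63 FPKM in C0, at 1.02, 0.94 and 1.09 in the cold libraries of 30, 60 and 120 min, and at 1.5, 1.97 and 2.9 in those of high light. UGT84A1 stayed far below both in level and reached 4.6 times C0 in C120L, with 3.34 for P120L/P0. At 30 min of cold its ratio of primed to control plants was 0.667, exactly at the threshold. UGT84A4 moved the other way in light, with 4.61 FPKM in C0, 2.88 in C120L and 4.47 in P120L.

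Members tied to jasmonate came from a list of 2 genes, of which UGT76E2 was at a mean of 0.01 FPKM. UGT76E1 glucosylates hydroxylated jasmonate. UGT76E1 was at 0.24 FPKM in C0, at 0.11, 0.8 and 0.82 in the cold libraries of 30, 60 and 120 min, and at 0.43, 3.54 and 5.22 in those of high light. Primed plants had UGT76E1 at 0.03 FPKM in P0, at 0.18, 0.68 and 0.45 in cold, and at 1.16, 1.43 and 1.73 in high light. All libraries except those of 60 and 120 min of light and P30L were below 1 FPKM, and C60L and C120L stood above the other 12. Their ratios to C0 were 14.7 and 21.7, and P/C was 0.404 and 0.331 at these times. P0 was at 0.03 FPKM, near the last decimal of the table, so P60L/P0 and P120L/P0 came to 47.7 and 57.7, and counted from the own start the log2 value of the priming effect turned to 1.69 and 1.41. Most of the annotated exon sequence of UGT76E1 (1679 bases) overlaps BOA on the opposite strand, which was at 0.02 to 0.11 FPKM.

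UGT76E12 and AT3G46700, to which no role is assigned here, had a similar course. UGT76E12 was at 0.32 FPKM in C0, at 0.17, 0.52 and 0.74 in the cold libraries of 30, 60 and 120 min, and at 0.63, 5.0 and 7.53 in those of high light. Primed plants had UGT76E12 at 0.18 FPKM in P0, at 0.49, 0.42 and 0 in cold, and at 1.26, 0.84 and 2.66 in high light. C60L and C120L stood above the other 12 libraries, the next being P120L. AT3G46700 was at 0.16 FPKM in C0, at 0.23, 0.7 and 0.71 in the cold libraries of 30, 60 and 120 min, and at 0.21, 8.44 and 10.1 in those of high light. Primed plants had AT3G46700 at 0.2 FPKM in P0, at 0.48, 0.59 and 0.2 in cold, and at 0.48, 3.79 and 1.43 in high light. Here too C60L and C120L were highest, followed by P60L and P120L. UGT76E12, AT3G46700 and UGT76E1 reached the limit of 1 FPKM only through C60L and C120L, and over the other 12 libraries their means were 0.686, 0.765 and 0.672 FPKM, so their ratios that use these 2 libraries are a description of members that had to be high there. UGT76E12 was 15.6 and 23.5 times C0 after 60 and 120 min of light, and AT3G46700 52.7 and 63 times, from a C0 level of 0.16 FPKM. P/C was 0.168 and 0.353 for UGT76E12 and 0.449 and 0.142 for AT3G46700 at the same times, ratios that share the control libraries with those to C0. With a pseudocount of 1 FPKM, which shrinks the ratios of weak genes, the log2 P/C of UGT76E12 was -1.7 and -1.22 and that of AT3G46700 -0.98 and -2.19, all still past the threshold.

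At 30 min of light the primed libraries were the higher ones. UGT76E1, UGT76E12 and AT3G46700 were at 1.16, 1.26 and 0.48 FPKM in P30L and at 0.43, 0.63 and 0.21 in C30L. In cold they stayed at or below 0.82 FPKM in all 6 libraries, and UGT76E12 is listed at 0 in P120C. UGT76E11, which lies next to UGT76E12 and is 87.7% identical to it over the coding sequence, was at 15.0 FPKM in C0, 20.6 in C60L and 23.4 in C120L, with 16.3 and 23.1 in P60L and P120L. An antisense gene, AT3G46658, covers 1785 exon bases of UGT76E12 and was at 0.32 to 1.07 FPKM, with 0.67 in C0, 0.92 in C60L and 0.67 in C120L. No strand-specific counting is stated, so reads of UGT76E12 and AT3G46658 cannot be told apart.

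**Figure D4:**
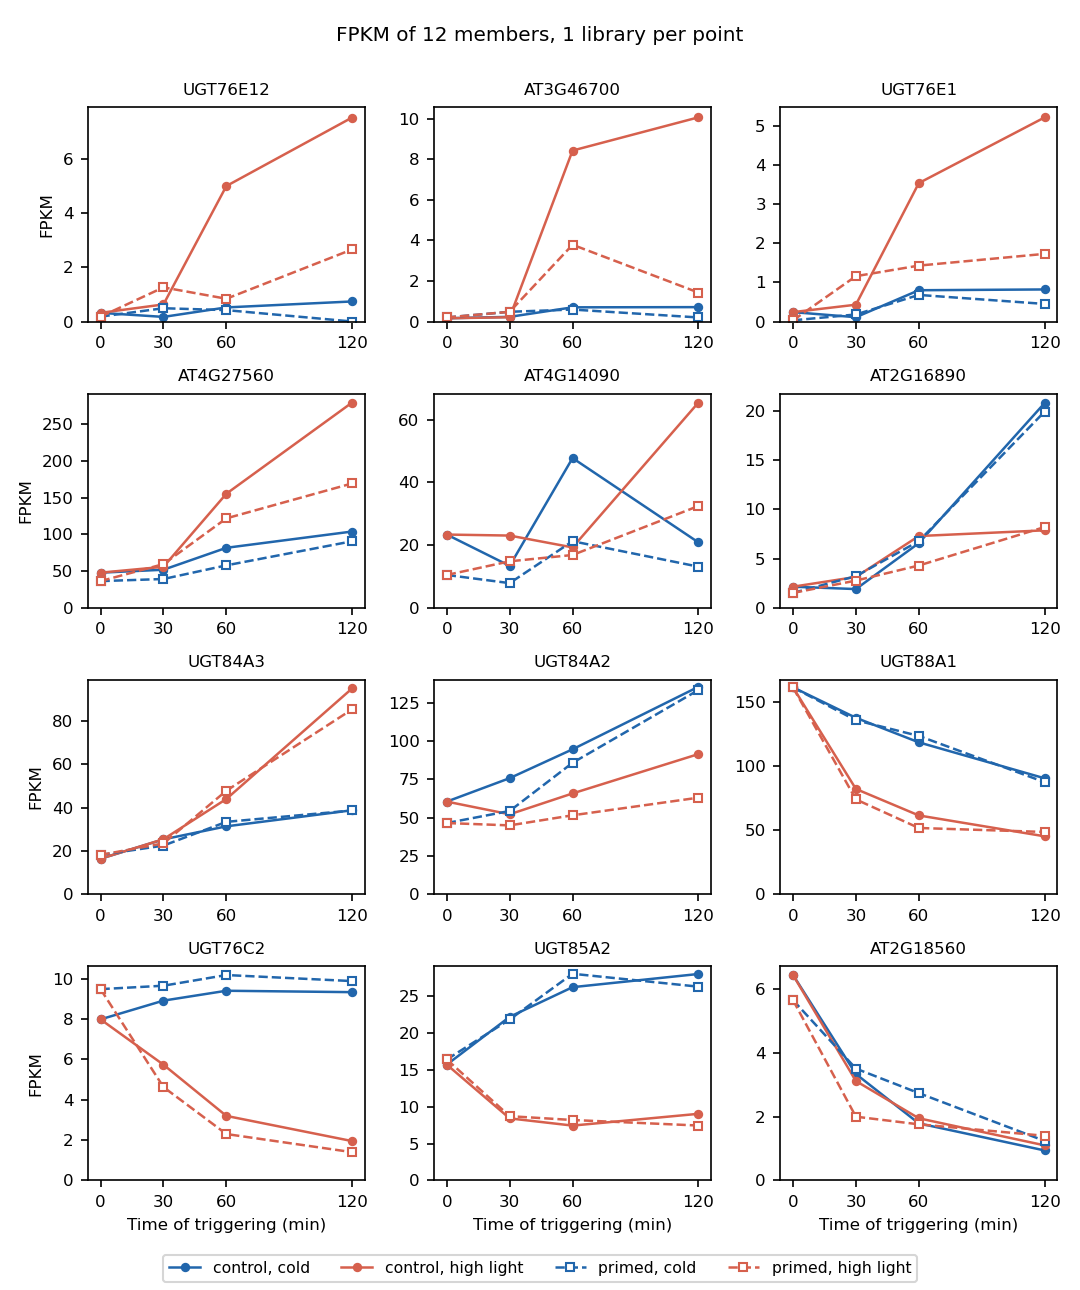
FPKM (y axis, from 0) of 12 members over 0 to 120 min of triggering (x axis), with filled circles and solid lines for control plants, open squares and broken lines for primed plants, blue for cold and red for high light; each point is 1 library. UGT76E12, AT3G46700 and UGT76E1 are above 3 FPKM only in control plants after 60 and 120 min of light, apart from AT3G46700 in P60L (3.79), and the primed libraries of UGT84A3 and UGT88A1 stay within 0.840 to 1.11 times the control ones.

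Members that act on cytokinins fell in light. The 3 measured members of the list for cytokinins and brassinosteroids, UGT76C1, UGT76C2 and UGT85A1, were all lower than C0 by at least 1.5-fold after 60 and 120 min of light (11.7% and 17.9% of all genes), with a median log2 ratio of -1.47 at 120 min. UGT76C2 was at 7.99 FPKM in C0, at 8.92, 9.41 and 9.34 in the cold libraries of 30, 60 and 120 min, and at 5.74, 3.2 and 1.95 in those of high light. Primed plants had UGT76C2 at 9.49 FPKM in P0, at 9.66, 10.2 and 9.89 in cold, and at 4.63, 2.3 and 1.4 in high light. UGT76C2, which inactivates cytokinins by N-glucosylation, was lower at each later time of light in both groups, while its cold libraries stayed between 8.92 and 10.2 FPKM. UGT76C1, of the same activity, had 9.25 FPKM in C0, 5.25 in C120C and 5.53 in C120L. UGT85A1, which adds glucose to zeatin, had 3.76 FPKM in C0, 5.41 in C60C and 1.36 in C120L, and 0.99 in P120L. The priming effect passed the threshold in none of the 3 at any time.

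Of the 4 auxin members, the 2 measured ones were at least 1.5-fold lower than C0 after 60 and 120 min of light (11.7% and 17.9% of all genes), but not after 30 min. UGT75B1 was also lower after 60 and 120 min of cold (5.62% and 10.3% of all genes). Its log2 ratio at 60 min of cold, -0.64, became -0.57 under both rescalings, inside the threshold. UGT75B1, which makes the glucose ester of indole acetic acid, had 21.1 FPKM in C0, 10.4 in C120C and 11.7 in C120L, and 21.3, 8.25 and 13.8 in the corresponding primed libraries. UGT74D1, which glucosylates auxin and its oxidised form, had 41.1 FPKM in C0, 35.0 in C120C and 21.3 in C120L. UGT75B1 is overlapped by AT1G05562 on the opposite strand over 2136 bases (0.39 to 1.49 FPKM), and UGT74D1 by AT2G31751 over 1802 bases (0.8 to 1.71).

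Of the 12 members in the list for salicylate and immunity, 5 were measured, and 7 had means below 1 FPKM. UGT74F2 makes the glucose ester of salicylate. UGT74F2 was at 4.75 FPKM in C0, at 5.71, 4.37 and 3.71 in the cold libraries of 30, 60 and 120 min, and at 1.89, 1.05 and 3.5 in those of high light. Primed plants had UGT74F2 at 3.77 FPKM in P0, at 7.09, 4.82 and 2.97 in cold, and at 3.1, 0.63 and 0.95 in high light. Its levels in light were low at 60 min in both groups, and at 120 min P/C was 0.271, the control library being close to C0 again. AT5G03490 was lower than C0 after 120 min of cold (8.33 and 3.92 FPKM), UGT73B1 was at 1.03 to 1.45 FPKM in the control light libraries against 2.4 in C0, and UGT73B3 had 0.68 FPKM in C0, 1.76 in C120C and 1.81 in C120L, with 1.07 in P120L. UGT73B2 reached 5.9 FPKM in C60L from 3.22 in C0. UGT76B1, which acts on immune signals and lies below the limit with a mean of 0.981 FPKM, was at 8.18 FPKM in P30C and at 0.04 to 1.19 in the other 13 libraries. This value of a single library has no ratio here.

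Members for abscisic acid, glucosinolates and sterols, with 2 measured in each list, showed few calls. For abscisic acid 0 of 2 passed 1.5-fold in any pair. For glucosinolates 1 of 2 was lower than C0 at 30 min of light (8.21% of all genes) and at 120 min of cold (10.3%). For sterols 1 of 2 was higher at 120 min of cold (8.87%). UGT71C5, which makes the glucose ester of abscisic acid, was at 7.84 to 10.3 FPKM in all 14 libraries, and AT3G21790 at 5.27 to 8.2. UGT74B1, the S-glucosyltransferase of glucosinolate synthesis, had 63.8 FPKM in C0, 42.3 in C30L, 41.1 in C120C and 77.0 in C120L, and AT2G31790 stayed at 51.4 to 77.0 FPKM throughout. The log2 ratios of UGT74B1 in C30L and C120C, -0.592 and -0.635, became -0.518 and -0.542 under median ratios. With the mean of C0 and P0 as base they were -0.417 and -0.46, so both calls fell inside the threshold under these settings. The sterol glucosyltransferase UGT80B1 had 6.19 FPKM in C0 and 11.3 in C120C (10.1 in P120C), and SGT stayed at 6.61 to 8.97. UGT87A2, known for its part in flowering time, reached 24.2 FPKM in C120L from 14.0 in C0.

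The list for monolignols and xenobiotics had 3 measured members. GT72B1 had 112 FPKM in C0, 58.9 in C120C and 118 in C120L, with 61.3 and 117 in P120C and P120L. UGT72E1, which glucosylates coniferyl aldehyde, was at 12.6 FPKM in C0, 18.2 in C120C and 19.1 in C120L, with 17.3 and 23.0 in P120C and P120L. UGT72B3 had 12.1 FPKM in C0, 22.5 in C120C and 8.73 in C60L.

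Outside the lists, AT2G16890 had the steepest rise in cold. AT2G16890 was at 2.14 FPKM in C0, at 1.9, 6.56 and 20.8 in the cold libraries of 30, 60 and 120 min, and at 3.13, 7.28 and 7.86 in those of high light. Primed plants had AT2G16890 at 1.51 FPKM in P0, at 3.21, 6.76 and 19.9 in cold, and at 2.76, 4.29 and 8.19 in high light. The 2 libraries of 120 min of cold, at 20.8 and 19.9 FPKM, stood above the other 12, the highest of which was P120L. C120C/C0 was 9.71, and the primed library was close to the control library there, while P/C was 1.69 at 30 min of cold and 0.589 at 60 min of light. AT2G36970 rose in cold as well, from 4.91 FPKM in C0 to 8.59, 8.86 and 13.1 in control and to 6.86, 9.99 and 12.3 in primed plants, and stayed at 3.35 to 5.14 in all 6 light libraries.

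UGT85A2 and GBSS1 went apart under the 2 triggers. UGT85A2 was at 15.7 FPKM in C0, at 22.2, 26.2 and 28.0 in the cold libraries of 30, 60 and 120 min, and at 8.42, 7.44 and 9.04 in those of high light. Primed plants had UGT85A2 at 16.4 FPKM in P0, at 21.9, 28.1 and 26.3 in cold, and at 8.72, 8.2 and 7.45 in high light. All cold libraries of UGT85A2 were above C0 and P0 and all light libraries below them, without overlap. GBSS1 was at 208 FPKM in C0, at 171, 163 and 111 in the cold libraries of 30, 60 and 120 min, and at 221, 436 and 506 in those of high light. Primed plants had GBSS1 at 209 FPKM in P0, at 129.8, 115 and 96.2 in cold, and at 226, 385 and 383 in high light. For GBSS1 the order was reversed, with C120C/C0 at 0.533 and C120L/C0 at 2.43.

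UGT88A1 and AT2G18560 were lower than C0 under both triggers, and the ratio of AT2G18560 in C120C was the lowest among the 74 members for the 6 triggered control libraries over C0. Without untriggered libraries of the same times, the triggers and the time of day cannot be told apart here. UGT88A1 was at 162 FPKM in C0, at 138, 119 and 90.6 in the cold libraries of 30, 60 and 120 min, and at 82.3, 61.6 and 45.2 in those of high light. Primed plants had UGT88A1 at 162 FPKM in P0, at 136, 124 and 87.6 in cold, and at 74.1, 51.7 and 48.6 in high light. UGT88A1 was lower at each later time under both triggers and lower in light than in cold, and its primed libraries were within 0.840 to 1.08 times the control libraries. AT2G18560 was at 6.45 FPKM in C0, at 3.34, 1.79 and 0.94 in the cold libraries of 30, 60 and 120 min, and at 3.12, 1.95 and 1.1 in those of high light. Primed plants had AT2G18560 at 5.66 FPKM in P0, at 3.51, 2.74 and 1.24 in cold, and at 2.0, 1.76 and 1.4 in high light. AT2G18560 fell to 0.146 of C0 in C120C and to 0.171 in C120L. Its neighbour AT2G18570 was at 0.426 of C0 in C30C, 0.574 in C120C and 0.609 in C120L, and with a pseudocount of 1 FPKM only the first stayed past the threshold.

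AT1G05675, AT4G15260 and DGD1 had their highest levels at 30 or 60 min of light. AT1G05675 was at 0.96 FPKM in C0, at 2.06, 2.93 and 3.19 in the cold libraries of 30, 60 and 120 min, and at 4.93, 3.08 and 0.48 in those of high light. Primed plants had AT1G05675 at 0.41 FPKM in P0, at 2.8, 2.82 and 1.24 in cold, and at 2.57, 1.83 and 0.57 in high light. AT1G05675 was 5.14 times C0 after 30 min of light and at 0.5 of it after 120 min, and it stayed high in cold in control plants. Because P0 was at 0.41 FPKM, below C0, the primed ratios P30L/P0 and P30C/P0 were 6.27 and 6.83. From the own start, the lower level of AT1G05675 in primed plants at 30 and 60 min of light turned into log2 values of 0.29 and 0.48, and that of AT4G15260 at 60 and 120 min of light, from a P0 of 2.37 FPKM, into 0.02 and 0.10. AT4G15260 had its highest level in C60L at 9.27 FPKM (5.63 in P60L), against 3.96 in C0 and 5.27 in C120L. DGD1 was at 37.7 FPKM in C0, 57.9 and 62.6 after 30 and 60 min of light and 28.1 after 120 min, with 64.2, 61.9 and 39.6 in primed plants.

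UGT85A4 was weak, and lower in light. UGT85A4 was at 2.33 FPKM in C0, at 0.71, 2.8 and 1.19 in the cold libraries of 30, 60 and 120 min, and at 1.42, 0.9 and 0.7 in those of high light. Primed plants had UGT85A4 at 2.37 FPKM in P0, at 1.86, 2.92 and 2.19 in cold, and at 0.53, 0.27 and 0 in high light. The control library of 30 min of cold was low against C0 and C60C, and all primed light libraries were below the control ones, the last being listed at 0. An antisense gene, AT1G78265, covers 1790 bases of UGT85A4 and was at 2.39 to 5.81 FPKM, above UGT85A4 in each library.

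Many tandem groups held members of very different level. Members whose starts lie within 10 kb of the next form 21 tandem groups with 64 members, the largest of 6, and 36 of the 64 had a mean of at least 1 FPKM, against 38 of the 61 single members. In 14 of the 21 groups members lay on both sides of that limit. Wide spans were found in the group of 5 with UGT76C2, where UGT76C2 and UGT76C1 had means of 6.72 and 6.59 FPKM and AT5G05900 of 0.00143, and in that of UGT75B1 (14.3) and UGT75B2 (0.0264). In the group of 6 on chromosome 3 UGT76E11 had a mean of 16.1 FPKM, AT3G46700 1.98 and UGT76E12 1.48, and the other 3 at most 0.104.

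**Figure D5:**
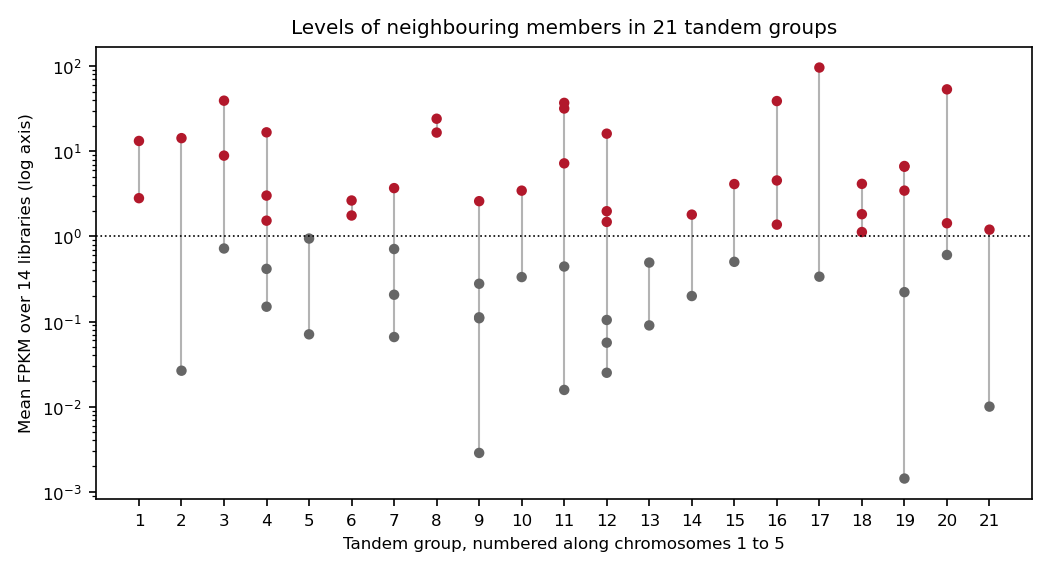
Mean FPKM over the 14 libraries (log axis) of each member of the 21 tandem groups, numbered along chromosomes 1 to 5; red points are at or above 1 FPKM (dotted line), grey points below it, and a line joins the members of a group. In 14 groups points lie on both sides of the dotted line.

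Tandem neighbours also differed in their courses. In the UGT84A group UGT84A1 and UGT84A3 were at 4.6 and 5.81 times C0 after 120 min of light and UGT84A4 at 0.625. In the group of 5 with UGT85A2, the cold ratios C120C/C0 were 1.78 for UGT85A2, 1.16 for UGT85A1 and 0.437 for UGT85A5. In the UGT73B group UGT73B3, UGT73B2 and UGT73B1 were at 2.59, 1.17 and 1.18 times C0 in C120C and at 2.66, 1.02 and 0.446 times in C120L, although UGT73B3 and UGT73B2 are 89.0% identical. Over the coding sequence 2 of the 84 pairs of neighbours were over 90% identical, and UGT76E1 and UGT76E2 were 88.5% identical. Exons of 38 members overlap those of another gene, 15 of them among the 51 members chosen for naming. UGT73B3, with a mean of 1.13 FPKM, shares 62 bases with AT4G34120, which was at 71.5 to 148 FPKM. AT4G34120 also rose, from 71.5 FPKM in C0 to 136 in C120C and 148 in C120L. Whether reads of AT4G34120 entered the level of UGT73B3 was not tested.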

How the data were processed

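RNA of pooled rosettes was sequenced on the BGISEQ platform, and the authors deposited 1 table of FPKM values for 14 libraries, 1 per condition. The study's methods name Bowtie2 and RSEM, whereas the submitters' processing notes name HISAT2 2.1.0 with TAIR10; which of them made the table is not given. Absolute depth was not recovered, so no counting interval is given.

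Members were taken by their table description, and the members and lists were chosen with earlier results of these data known. Ratios were made from FPKM as deposited, for genes with a mean of at least 1 FPKM and without a pseudocount. With 1 library per condition no single pair could be tested, an additive fit over the 7 primed and control pairs was not made, and a ratio of at least 1.5-fold was counted, beside the share of all genes. A ratio to a library at 0 was left out. Named members are those of the 11 role lists, the 5 most abundant, and the 6 largest responses per direction that kept their sign at 3 times, or the 6 largest P0/C0 ratios. AT2G16890, UGT85A2 and UGT76E11 were described in addition, and neighbours, members below the limit and quiet members named, after their values were seen. Gene positions, domains, coding sequences and the 300 bases upstream came from RefSeq on TAIR10.1, in which 125 members were matched. Tandem groups joined members within 10 kb. Alternatives were a pseudocount of 1 FPKM, the study's filter (0.5 FPKM in C0 and P0, mean of 2), no filter, 2 rescalings and other baselines. Python 3.11.15, pandas 2.3.3, NumPy 2.4.6, Biopython 1.88 and matplotlib 3.10.9 were used, and the counting step was tested on simulated data.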

Additional observations from a re-analysis of the deposited data

Results flagged for a closer look

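For 5 of the 74 measured members the response to cold and to high light had opposite signs in all 6 libraries of each trigger. Each library was set against the start of its own group (C0 or P0). Of the 5, 3 also passed 1.5-fold under both triggers in at least 1 library. The share of all genes that meet these rules was not counted, so the 5 cannot be read as a trait of the family. The mean log2 response of GBSS1 over the control and primed libraries was -0.701 in cold and 0.718 in high light. For UGT85A2 the means were 0.656 and -0.972, and for UGT72B3 0.393 and -0.447. The other two, UGT76C2 (0.135 and -1.612) and AT5G05890 (0.255 and -0.908), did not pass 1.5-fold in cold. The difference between the triggers was not tested, since each condition is 1 library and all libraries of a group share its start.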

How the results depend on the processing

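No paired analysis was possible because the groups share fewer than 2 replicate numbers, each condition being 1 library. A fit of priming over the 7 matched pairs was not made, and no library could be left out of a group. Counts of members (higher and lower, or as named) that moved by more than 1.5 times are given by setting, and the cause was not tested unless the setting itself gives it. The study's filter, which tests 61 members, gave 3 and 2 for C30C/C0, 11 higher for C120C/C0, 2 and 7 for C30L/C0, 9 and 11 for C60L/C0, 2 lower for P0/C0, 1 and 2 for P30C/C30C, 0 and 1 for P120C/C120C, 1 and 2 for P30L/C30L, 4 lower for P60L/C60L and 4 lower for P120L/C120L. Under it the members' share was below that of all genes for lower calls at C30C/C0 (3.28% against 5.38%) and higher calls at C30L/C0 (3.28% against 3.99%). Without a filter, more genes being tested, the counts were 13 and 16 for C30C/C0, 29 and 10 for C60C/C0, 29 and 23 for C120C/C0, 14 and 21 for C30L/C0, 24 and 28 for C60L/C0, 36 higher for C120L/C0, 5 and 18 for P0/C0, 16 and 7 for P30C/C30C, 10 and 13 for P60C/C60C, 9 and 12 for P120C/C120C, 16 and 15 for P30L/C30L, 11 and 19 for P60L/C60L and 10 and 21 for P120L/C120L. A pseudocount of 1 FPKM gave 2 lower for C60C/C0, 6 lower for C30L/C0, 1 lower for P0/C0, 2 and 1 for P30C/C30C, 0 and 1 for P60C/C60C, 0 and 3 for P120C/C120C, 1 and 3 for P30L/C30L, 5 lower for P60L/C60L and 0 higher for P120L/C120L. Scaling by 8 reference genes gave 8 higher for C30C/C0, 3 lower for C60C/C0, and 0 and 5 for P60C/C60C. Scaling by median ratios gave 8 higher for C30C/C0 and 3 lower for C60C/C0. Under either scaling P120L/C120L had 3 higher and 10 lower. The median log2 ratio of all genes moved by over 0.1 from -0.12 to 0 for C30C/C0 under median ratios, and under reference genes from -0.08 to -0.19 for C120L/C0 and from 0.03 to -0.09 for P60C/C60C. The mean of C0 and P0 as the base gave 4 lower for C30C/C0. From the own start, (P/P0)/(C/C0), the counts were 11 and 2 for P30C, 3 and 1 for P60C, 4 and 1 for P120C, 2 lower for P30L, 2 and 5 for P60L and 4 lower for P120L. There the log2 priming effect of 4 members changed sign, since P0 was below C0: AT4G14090 to 0.391, 0.488, 0.521 and 0.145 at P30C, P120C, P30L and P120L, AT1G05675 to 0.288 and 0.476 at P30L and P60L, AT4G15260 to 0.138, 0.021 and 0.1 at P60C, P60L and P120L, and UGT76E1 to 2.134, 1.692 and 1.407 at P120C, P60L and P120L. Counting only members with the InterPro domain, an alternative chosen after seeing the data, left all 26 counts within 1.5 times. Of these, 59 were tested, or 58 for P120C/C120C and P120L/C120L. Higher and lower were 5 and 7 for C30C/C0, 14 and 6 for C60C/C0 and 18 and 13 for C120C/C0. In light they were 5 and 11 for C30L/C0, 12 and 17 for C60L/C0 and 17 and 18 for C120L/C0. For all pairs of primed and control libraries the counts were unchanged. No other setting reversed a called ratio of a member named by rule or of AT2G16890, UGT85A2 and UGT76E11.

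Of the calls of the members described, 129 stayed past 1.5-fold and 64 fell inside it with a pseudocount of 1 FPKM. Weak members such as UGT76E1, whose P0 value of 0.03 FPKM is near the last decimal of the table, are thus the least certain.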
